A study of Mus musculus with 6 samples.

Results

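The CDR3 proteins described here were each encoded by 2 or more distinct nucleotide sequences, called forms. They came from the *Trd* repertoire, the δ chain sequences, of γδ T cells from peripheral lymph nodes (pLN) of mice. The 6 read 1 tables were pooled, *Trdv1* and *Trdv5* clonotypes with at least 10 reads in a sample were kept, and clonotypes with the same V segment, J segment and CDR3 amino acids were taken as one protein. Proteins with at least 2 forms were kept. The proteins were thus chosen by measured values, the read count of each form and the number of forms, so these values are descriptions here and carry no test. By this rule 55 of 1127 proteins (4.88%) had several forms, and 1072 had a single form. The 55 proteins held 116 of all 1188 forms.

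All cells came from adult mice of the strain B6.Cg-Tcrgtm1lku(B6.Vg4-/-Vg6-/-), which lack Vγ4+ and Vγ6+ γδ T cells, and a wild-type sample was not part of the comparison. The pLN cells were stimulated with PMA and ionomycin, and γδ T cells that secreted IL-17 (IL-17pos) or did not (IL-17neg) were sorted with a secretion assay. The sort used no antibody against a Vγ chain, so the γ chain paired with each δ chain is not given by these data. Each group had 3 samples, numbered 13-01, 20-01 and 27-01 in both groups. The sources used here do not state what the numbers stand for, the age of the mice in weeks, the number of sorted cells, or whether the samples came from separate animals, so p-values measure the spread between these samples only.

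A δ chain CDR3 is made by V(D)J recombination, which joins a V, one or more D and a J segment, trims their ends and can add untemplated bases (N-insertions) with the enzyme TdT. Because most amino acids have several codons, different joins can encode one protein, which is known as convergent recombination. N-insertions are scarce in fetal thymocytes and common after birth. In an amplicon library, polymerase and sequencing errors can also give near-copies of an abundant sequence, and such errors are often transitions, changes between A and G or between C and T.

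The germline segments on GRCm38 chromosome 14 are *Trdv1* (53881612 to 53882217, plus strand), *Trdv5* (54148662 to 54149201, minus strand), *Trdd1* (54113468 to 54113476), *Trdd2* (54122226 to 54122241) and *Trdj1* (54123138 to 54123188), the last 3 on the plus strand. The parts that enter the CDR3, from the conserved cysteine codon of V to the phenylalanine codon of J, read as follows and are shown so that each form can be read against them.
Trdv1: tgtggagggaaag
Trdv5: tgtgcctcggggtat
Trdd1: atggcatat
Trdd2: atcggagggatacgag
Trdj1: ctaccgacaaactcgtcttt

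The number of forms per protein was small. Of the 55 proteins, 51 had 2 forms, 2 had 3 forms and 2 had 4 forms. *Trdv1* gave 31 of its 573 proteins (5.41%) and *Trdv5* 24 of its 554 (4.33%). All 1127 proteins used *Trdj1*. At the read limit, the second forms with the fewest reads inside the rule had 10, 11 and 14 reads, and the nearest proteins outside it had second forms of 9, 8 and 7 reads. Outside it, 5 proteins in all had a second form with 5 to 9 reads, and 59 had one with 1 to 4 reads. With at least 50 reads, in the tables of the second read, or without IL-17pos 27-01, 32 proteins had several forms. Dropping less-read forms 1 base from another form of the protein in the sample left 10.

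The forms fell into 2 arrangements. In 47 proteins at least 2 forms were found in one and the same sample. In the other 8 proteins each form was found in a different sample, and no sample held more than 1 form. This division was made after the values were seen, so the contrasts between the arrangements are given without a test.

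The protein with the most reads, protein A, used *Trdv5* and *Trdd2*, had 14 residues and 4 forms, and was found with at least 10 reads in 5 samples. Its forms are shown because form A1 is a germline join without an insertion and because A1 and A2 were each found in several samples. Capitals mark, here and below, the bases at which the forms of one protein differ.
A1: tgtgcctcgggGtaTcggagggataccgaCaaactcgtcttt
A2: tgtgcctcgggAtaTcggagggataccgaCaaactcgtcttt
A3: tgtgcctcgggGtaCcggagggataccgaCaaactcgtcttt
A4: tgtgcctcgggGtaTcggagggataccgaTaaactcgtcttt

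Form A1 had 6393 reads in IL-17neg 13-01, 2 in IL-17neg 20-01, 184 in IL-17neg 27-01, none in IL-17pos 13-01, 4057 in IL-17pos 20-01 and 1784 in IL-17pos 27-01. Form A2 had 4642, 0, 141, 2500, 0 and 537 reads in the same samples, in that order. Forms A1 and A2 differ by G12A, with positions counted from 1 at the 5′ end of the CDR3, in the last glycine codon of the V part. Both forms occurred together in 3 samples, whereas only A1 was above 10 reads in IL-17pos 20-01 and only A2 in IL-17pos 13-01. Their ratio was not constant, and where both occurred it reached 3.32 at most. Forms A3 (T15C) and A4 (C30T), each 1 base from A1, were found in IL-17neg 27-01 alone, with 415 and 152 reads. In that sample A3 had more reads than A1. The 0 readings of A allow a share of up to 0.00211% to 0.00313% of a sample's reads, depending on the sample.

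Protein C, of *Trdv1*, had 11 residues, 4 forms and no assigned D segment. Its forms are shown because C1 was found in an IL-17neg and an IL-17pos sample, each time beside a form that the other sample did not hold with 10 reads.
C1: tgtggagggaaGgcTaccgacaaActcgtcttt
C2: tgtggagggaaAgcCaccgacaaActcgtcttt
C3: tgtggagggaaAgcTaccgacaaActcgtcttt
C4: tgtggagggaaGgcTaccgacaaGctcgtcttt

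Form C1 had 2197 reads in IL-17neg 27-01 and 1111 in IL-17pos 13-01. Form C2 had 929 reads in IL-17pos 13-01, where it was nearly as abundant as C1, and form C3 had 601 reads in IL-17neg 27-01. Forms C1 and C2 differ at 2 bases, G12A and T15C, in adjacent codons for lysine and alanine. Form C4 had 38 reads in IL-17pos 13-01 and differs from C1 by A24G, inside *Trdj1*. Beyond C1, A1 and A2, no form of any of the 55 proteins reached 10 reads in a second sample.

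The 8 proteins whose forms were never in one sample are all shown, because each was built by separate sequences in separate samples. All except K used *Trdd2*, and K had no assigned D. Proteins F and G were named by the fixed rule and the other 6 after their values were seen.
F1: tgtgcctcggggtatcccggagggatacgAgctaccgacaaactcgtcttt
F2: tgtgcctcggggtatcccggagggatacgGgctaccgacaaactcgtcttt
G1: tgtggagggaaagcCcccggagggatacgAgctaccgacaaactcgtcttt
G2: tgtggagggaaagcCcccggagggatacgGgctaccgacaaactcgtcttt
G3: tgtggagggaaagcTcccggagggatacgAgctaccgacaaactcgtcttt
I1: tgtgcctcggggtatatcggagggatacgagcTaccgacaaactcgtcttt
I2: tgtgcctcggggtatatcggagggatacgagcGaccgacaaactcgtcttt
J1: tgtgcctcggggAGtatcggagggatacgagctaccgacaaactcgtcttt
J2: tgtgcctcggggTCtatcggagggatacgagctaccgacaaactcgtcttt
K1: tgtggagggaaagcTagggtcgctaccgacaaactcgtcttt
K2: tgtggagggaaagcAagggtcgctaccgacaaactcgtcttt
L1: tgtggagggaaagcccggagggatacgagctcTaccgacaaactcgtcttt
L2: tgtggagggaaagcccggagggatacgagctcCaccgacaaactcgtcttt
M1: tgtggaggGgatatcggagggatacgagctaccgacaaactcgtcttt
M2: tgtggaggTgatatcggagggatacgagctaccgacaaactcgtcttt
N1: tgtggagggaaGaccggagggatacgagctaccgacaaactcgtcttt
N2: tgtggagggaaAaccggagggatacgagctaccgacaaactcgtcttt

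Protein F, of *Trdv5* with 17 residues, had 2170 reads of F1 in IL-17pos 13-01 and 341 reads of F2 in IL-17neg 27-01. The forms differ by A30G in an arginine codon at the *Trdd2* end. Protein G, of *Trdv1* with 17 residues, had 2555 reads of G1 in IL-17neg 20-01, 323 of G2 in IL-17neg 27-01 and 55 of G3 in IL-17pos 27-01. G1 and G2 differ by the same A30G, and G1 and G3 by C15T. Thus F and G, with different V segments, held the same A-to-G difference near the 3′ end of *Trdd2*, where F1 and G1 have the germline base.

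Protein I is a *Trdv5* protein of 17 residues whose form I1 joins the CDR3 parts of *Trdv5*, *Trdd2* and *Trdj1* end to end, untrimmed and with no insertion. I1 had 1705 reads in IL-17neg 27-01 and I2 had 296 in IL-17pos 27-01. The 2 forms differ by T33G at an alanine codon, and this change is a transversion. Protein J, of the same V segment and length, had 514 reads of J1 in IL-17neg 27-01 and 393 of J2 in IL-17pos 27-01, and its forms differ at 2 neighbouring bases of a serine codon (A13T and G14C). J1 was annotated with 2 insertions and J2 with none, although J2 also has 2 bases that match no segment end, because the deposited V border reaches past them.

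The remaining 4 used *Trdv1*. Protein K had 387 reads of K2 in IL-17neg 13-01 and 393 of K1 in IL-17pos 27-01, forms that differ by T15A. Protein L had 488 reads of L1 in IL-17pos 20-01 and 61 of L2 in IL-17pos 27-01, which differ by T33C, and was the single protein of the 8 held by one IL-17 group only. Protein M had 429 reads of M1 in IL-17neg 27-01 and 81 of M2 in IL-17pos 27-01, which differ by G9T. Protein N had 271 reads of N1 in IL-17neg 27-01 and 262 of N2 in IL-17pos 27-01, which differ by G12A. All 8 proteins had a form in a sample numbered 27-01, and 5 of the 8 were held by both samples of that number, which also held the most clonotypes of at least 10 reads (411 and 398 of 1202). Part of this pattern can be set by how many clonotypes each sample held, and that was not tested.

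Across these 8 proteins the forms held few insertions. Their 17 forms were 42 to 51 bases long, with a median of 51, the same median as in the 99 forms of the other 47 proteins (33 to 75 bases) and in single-form proteins (27 to 78 bases). The 15 forms with an assigned D had 0 to 4 insertions (median 2, mean 1.67), and 4 had none by the deposited borders. Of these 4, I1 matched the germline segments at every base, while I2, J2 and M1 had 2, 2 and 3 bases outside a match. Among the 99 forms of the 47 proteins with several forms in one sample, 90 had an assigned D and held 0 to 23 insertions (median 6, mean 7.09), and 3 had none. Single-form proteins lay with the latter: their 977 forms with a D had 0 to 40 insertions (median 6, mean 7.51), and 61 (6.24%) had none. Counted instead as bases outside an unbroken match to germline V, D or J, the medians were 4, 10 and 8 for the 3 sets. By this count, a changed base inside V or J can also add the germline bases beyond it. For example, A4 had 4 such bases and A1 had 0. Insertions by the borders can in turn hold letters of *Trdd1*, as in protein H below.

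The next examples come from the 47 proteins with several forms in one sample. Proteins B, D and E are shown for their reads, H for its 3 forms and O for its nearly equal reads. In each of these proteins the forms are close to one another. Such closeness was not particular to forms in one sample. Of the pairs with both forms in one sample, 51 of 57 differed at 1 base, and so did 9 of the 12 pairs never in one sample. The rule named B, D, E and H, and O was named after its values were seen.
B1: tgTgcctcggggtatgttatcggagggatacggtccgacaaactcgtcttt
B2: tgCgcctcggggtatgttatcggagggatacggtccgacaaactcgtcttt
D1: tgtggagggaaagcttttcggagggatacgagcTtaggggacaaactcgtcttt
D2: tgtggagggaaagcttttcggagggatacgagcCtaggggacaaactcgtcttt
E1: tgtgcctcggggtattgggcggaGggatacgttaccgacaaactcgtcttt
E2: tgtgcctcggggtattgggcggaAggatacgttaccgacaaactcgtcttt
H1: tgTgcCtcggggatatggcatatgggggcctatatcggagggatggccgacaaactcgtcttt
H2: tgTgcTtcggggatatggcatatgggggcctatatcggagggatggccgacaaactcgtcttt
H3: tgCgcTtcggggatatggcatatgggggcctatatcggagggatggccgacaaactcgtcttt
O1: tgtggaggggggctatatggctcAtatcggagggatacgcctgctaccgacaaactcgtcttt
O2: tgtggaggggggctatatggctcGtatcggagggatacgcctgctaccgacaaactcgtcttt

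Protein B, of *Trdv5* with 17 residues and 4 insertions, was held by IL-17neg 20-01, with 5334 reads of B1 and 939 of B2. The forms differ by T3C, in the codon of the conserved cysteine at the start of the CDR3, and B1 has the germline base. Protein D, of *Trdv1* with 18 residues, had 2736 and 204 reads of its 2 forms in IL-17pos 13-01, a ratio of 13.4. Protein E had 2619 and 152 reads in IL-17pos 20-01, a ratio of 17.2, and its forms differ by G24A inside *Trdd2*.

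Protein H, of *Trdv5* with 21 residues and 14 insertions, formed a series within IL-17pos 20-01. H1 had 338 reads, H2 had 68 and differs from H1 by C6T, and H3 had 16 and differs from H2 by T3C. Its sequence holds the letters of the whole *Trdd1* (atggcatat) before *Trdd2*, and the deposited borders start D some bases ahead of its exact match. By these borders the V-D gap of 12 bases holds 7 or 8 of the 9 *Trdd1* letters, depending on whether borders count from 0 or from 1, and these are counted as insertions in H. Protein T, named below, also holds *Trdd1* letters (atggcata) before *Trdd2*, and T1 had 14 insertions but 7 bases outside a germline match. How many insertions of the other proteins are *Trdd1* letters is not given here. In protein O, unlike the series in H, both forms had nearly the same reads in IL-17pos 20-01, 209 and 208. They differ by A24G, where the deposited borders differ, with a V-D gap of 14 bases in O1 and 15 in O2.

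Of the 51 pairs of forms in one sample that differ at 1 base, 7 had a read ratio under 1.5 in every sample that held both forms. A1 with A2 was under it in 2 of its 3 shared samples (1.38 in IL-17neg 13-01 and 1.30 in IL-17neg 27-01). Besides A1 with A4 and protein O, these were the proteins P (193 and 190 reads, G15A in the V-D gap, IL-17pos 27-01), Q (88 and 76 reads, T60C, IL-17neg 27-01), R (81 and 64 reads, T51C, IL-17pos 27-01), S (52 and 36 reads, G9A, IL-17neg 27-01) and T (52 and 39 reads, A6G, IL-17pos 27-01). In Q and R, the change is at the last base of the CDR3, in the phenylalanine codon of *Trdj1*. Hence like read counts occurred both between the segments, as in P, and at bases that germline V or J encodes.

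Pairs of forms were compared base by base. The 116 forms made 69 pairs, of which 57 had both forms in one sample and 12 did not. Of the 57, 51 differed at 1 base, 5 at 2 bases and 1 at 3 bases. All 51 of the 1-base differences were transitions, and 50 were at the third base of a codon, where transitions leave most amino acids as they are. The rule partly fixed both counts, since the forms of one protein must encode the same residues. Among the 9 pairs that differed at 1 base and were never in one sample, 6 were transitions. The codons changed most often within a sample were those of lysine and glycine (10 pairs each), alanine (8) and cysteine (6).

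By the deposited borders, 12 of the 51 differences lay in V, 15 in J, 7 in D and 5 in a gap between segments, and for 12 the borders themselves differed between the forms. In all 27 pairs with the difference in V or J, the form with more reads over the samples had the germline base and the other did not. By position alone, whatever the borders, 34 of the 51 differences lay within the reach of the germline V or J, with the germline base in the more-read form in 30 pairs, in the less-read form in 1 (C1 with C3, G12A) and in neither in 3. The same change recurred in different proteins, at positions where they share germline sequence. T3C in the cysteine codon, which reads tgt in both V segments, was seen in 6 of the 55 proteins, of which 5 used *Trdv5*. A10G, here counted from the 3′ end and lying in the lysine codon of *Trdj1*, was seen in 8 of the 55, of which 6 used *Trdv1*. All 1127 proteins used *Trdj1*.

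The read ratio of a pair was taken in the sample where it was largest. The form with more reads then had 1.00 to 29.2 times the reads of the other (median 6.22), and the ratio was at least 2 in 48 of 57 pairs, at least 5 in 31 and at least 10 in 22. Both forms had the same number of insertions in 39 of the 50 within-sample pairs with a D in both. This held for 1 of 9 pairs that were never in one sample. Among the pairs never in one sample that differ at 1 base, the borders differed at the changed base in 7 of 9. The insertion count can thus shift with that base alone, and whether the forms were different joins was not tested.

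Forms that encode one protein are a subset of all near-identical clonotypes. Counted sample by sample, 144 pairs of clonotypes with at least 10 reads differed at 1 base in the same sample. Of these, 53 encoded one protein and 91 encoded different proteins. The pairs with different proteins were also mostly transitions (83 of 91, 91.2%) and had a median read ratio of 7.15. Clonotypes 1 base apart were thus also found between proteins. They ranged from 5 pairs in IL-17neg 20-01 to 49 in IL-17pos 27-01, the latter with 18 that encoded one protein. Among clonotypes 1 base apart that were never in one sample, 9 of 29 pairs encoded one protein. Whether a pair came from separate cells or from amplification and sequencing was not tested, since the reads carry no molecular identifiers.

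The second read of each pair, deposited as a table of its own, gave a further value for each form. When a protein had several forms in a sample, the form with fewer reads was also present in the read 2 table of that sample in 29 of 54 cases (53.7%). For the form with the most reads this was 42 of 50 (84.0%), for a member's only form in a sample 14 of 19 (73.7%), and for single-form proteins 810 of 1079 (75.1%). The read 2 tables held fewer reads, 50814 to 84842 against 95803 to 142169, and the part of depth and of each form's own read count in these shares was not tested.

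The forms were then followed across samples and IL-17 groups. Of the 55 proteins, 45 were found in a single sample, 18 in IL-17neg samples only, 28 in IL-17pos samples only and 9 in both groups (16.4%). Of the 1072 single-form proteins, 493 were found in IL-17neg samples only, 576 in IL-17pos samples only and 3 (0.280%) in both groups, and 6 (0.560%) in at least 2 samples. A protein that is found in separate samples by separate forms becomes a member through the rule, so this difference was partly fixed by the choice. Of all 16 proteins found in at least 2 samples, 10 had several forms, and 8 of the 16 shared no form between their samples. At the level of forms, 3 of 116 member forms (2.59%) and 6 of 1072 others (0.560%) were in at least 2 samples. Fewer member forms than others also had 1 to 9 reads in another sample, 11 of 116 (9.48%) against 202 of 1072 (18.8%). Member clonotypes had fewer reads per sample (median 208 against 347), and the part of read counts in this difference was not tested.

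The share of proteins with several forms ranged from 3.85% to 7.50% between samples. In the IL-17neg samples 13-01, 20-01 and 27-01, 6 of 80 (7.50%), 2 of 52 (3.85%) and 21 of 394 (5.33%) proteins had several forms over the pooled samples. In the IL-17pos samples these were 5 of 93 (5.38%), 10 of 149 (6.71%) and 25 of 380 (6.58%). The groups overlapped, with means of 5.56% ± 1.84 (SD, n = 3) for IL-17neg and 6.22% ± 0.736 for IL-17pos. No test is given for this share or the next 2, since forms and reads chose the members. The share of proteins with 2 or more forms within the sample itself was 6.25%, 1.92% and 3.81% in IL-17neg and 3.23%, 5.37% and 4.74% in IL-17pos, which also overlapped (difference 0.451 percentage points). IL-17pos minus IL-17neg was 0.664 percentage points for the first share, and in the read 2 tables both differences had the opposite sign, -1.80 and -1.73 percentage points.

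Reads of these proteins made up 13.5%, 6.64% and 10.4% of the IL-17neg samples and 10.9%, 11.2% and 6.96% of the IL-17pos samples. The means were 10.2% ± 3.45 and 9.70% ± 2.38 (SD, n = 3), and the lowest sample of each group was close to the other. Protein A was the largest of them, and its shares of the 6 samples added up to 19.4 percentage points, against 4.72 for protein B. The forms of the members had a mean of 6.06 ± 2.71 insertions in IL-17neg and 5.29 ± 1.93 in IL-17pos (SD, n = 3; two-sided exact permutation p = 0.8, where 0.1 is the smallest p that 3 against 3 allows), so the groups did not differ beyond the spread between samples.

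Within each sample, member forms were set against the forms of single-form proteins. The mean number of insertions was 9.0, 3.67 and 5.50 in the IL-17neg samples and 3.17, 6.95 and 5.74 in the IL-17pos samples for the members. For single-form proteins these were 6.71, 8.78 and 7.46, and 7.91, 8.26 and 7.03. The members were lower in 5 of 6 samples, IL-17neg 13-01 being the exception, with a mean difference of -2.02 ± 2.71 (SD, n = 6). The exact sign-flip permutation test gave p = 0.156, or 0.562 with Benjamini-Hochberg adjustment over 6 comparisons. When less-read forms 1 base from a form of the same protein in the same sample were dropped, an alternative chosen after seeing the data, 10 proteins with 22 forms were left, and the difference was -6.46, with between 1 and 8 member forms per sample. These 10 are A, C and the 8 proteins whose forms were never in one sample, whose few insertions are given above, so this value restates them and is given without a test. Of the alternatives chosen earlier, the read 2 tables gave -2.84 (exact permutation p = 0.03125, the smallest that 6 samples allow, adjusted p = 0.188). This did not pass the threshold after adjustment. Weighting by reads gave -3.90, which is given without a test, since read counts chose the members. Forms A1 and A2, without insertions, held 6393 and 4642 of the 14566 member reads in IL-17neg 13-01, and 2 and 0 in IL-17neg 20-01. When insertions were counted as bases that match no germline segment, members had 0.747 more than single-form proteins (exact permutation p = 0.406). By that count a changed base inside V or J also ends the match.

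The share of forms without an insertion was 11.1% ± 7.50 for members and 6.77% ± 2.55 for single-form proteins (SD, n = 6; higher in 4 of 6 samples; exact permutation p = 0.188, adjusted p = 0.562). Members thus exceeded single-form proteins by 4.38 percentage points, and by 13.9 in the read 2 tables (exact permutation p = 0.0938, adjusted p = 0.25). With forms weighted by reads the difference was 27.9 points. It is given without a test, since read counts chose the members and the insertion-free forms A1 and A2 had many reads in some samples. Over the pooled forms the shares were nearly equal, 7 of 105 (6.67%) in members and 61 of 977 (6.24%) in single-form proteins. These shares follow the deposited borders. Of the 7 member forms, A1 and I1 had 0 bases without a germline match, and A2, A4, I2, J2 and M1 had 2, 4, 2, 2 and 3. The CDR3 measured 50.8 ± 3.36 bases in members and 52.3 ± 0.826 in single-form proteins (exact permutation p = 0.5, adjusted p = 0.938), and the median was 51 in both when forms were pooled. The difference of -1.46 bases was -0.187 without IL-17pos 13-01, -3.17 in the read 2 tables and -3.64 weighted by reads. Over the pooled forms, the V-D gap had a mean of 4.11 bases in members and 5.36 in single-form proteins, and the D-J gap 2.20 and 2.15.

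D use was close between the sets. *Trdd2*, the D segment of most adult δ chains, was assigned in 103 of 116 member forms (88.8%) and in 941 of 1072 other forms (87.8%). *Trdd1* was assigned in 2 (1.72%) and 36 (3.36%), and no D in 11 (9.48%) and 95 (8.86%). Per sample, the *Trdd2* share differed by 0.238 ± 13.2 percentage points (SD, n = 6; higher in 3 of 6 samples; exact permutation p = 0.969, adjusted p = 0.969). The share without D differed by 2.19 ± 12.5 points (exact permutation p = 0.781, adjusted p = 0.938), and the share of *Trdv5* by 2.70 ± 16.2 points (p = 0.719, adjusted p = 0.938, same exact permutation test). In these 3 comparisons the spread between samples exceeded the difference by far, and IL-17neg 20-01 held only 3 member forms.

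The 3 reading frames of *Trdd2* give different residues, since the frame at which D is joined sets which codons are read. Among *Trdd2* forms, the frame read as Gly-Gly-Ile was found in 34.0% of member forms and 34.6% of other forms, Glu-Gly-Tyr in 25.2% and 22.1%, and Arg-Arg-Asp in 21.4% and 18.5%. Member clonotypes had a median of 208 reads per sample and other clonotypes 347, as a description, since a read minimum chose them.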

How the data were processed

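RNA of the sorted cells was reverse-transcribed, *Trd* was amplified by RACE PCR and the amplicons were sequenced as read pairs on a MiSeq. The authors aligned the reads with MiXCR and deposited clonotype tables in the VDJtools format, 1 for each read of the pair, 12 in all. Which MiXCR version was run, and how it merged near-identical sequences, is not given in the sources used here, and the submitters' processing notes name mm10. The deposited count is the raw number of reads per clonotype, and the deposited fraction gives it relative to the table's total. The read 1 counts of *Trdv1* and *Trdv5* clonotypes were used, 95800 to 142163 reads per sample, and the fractions were not. The members and all lists were chosen with earlier results of these data known.

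Forms were distinct CDR3 nucleotide sequences with at least 10 reads in a sample. Insertions were the bases between the deposited V end and D start plus those between the D end and J start, for forms with an assigned D, so palindromic bases annotated to a segment were not counted. Letters of *Trdd1* that these borders left in a gap were counted as insertions. Germline sequences came from GRCm38 with the RefSeq annotation, the same assembly as mm10. Proteins are named by letters rather than residues. The fixed naming rule took the 8 members with the most forms, the 4 in the most samples and the 4 with the largest summed share of reads, with ties broken by share, so one protein can enter by several parts. I to T were added after their values were seen.

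The insertions of members in IL-17pos and IL-17neg samples were compared through their means, with a two-sided exact permutation test (20 assignments), and members with single-form proteins by an exact sign-flip permutation test over 6 within-sample differences (64 assignments), adjusted by the Benjamini-Hochberg method over 6 comparisons. The steps were tested on simulated data. The test between the IL-17 groups was also planned for 3 shares of proteins and reads, which are given without it, since they rest on the values that chose the members. For the same reason, differences weighted by reads are given without a test. Forms of one protein share samples and were not treated as replicates. Alternatives were the read 2 tables, other read minimums, weighting by reads, the dropping of near-copies, the replicate block and leaving out each sample. Because reads carry no molecular identifiers, the upper limit given for 0 readings, which is 3 reads out of a sample's total, covers counting error only. Python 3.11.15, NumPy 2.4.6, pandas 2.3.3 and SciPy 1.17.1 were used.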

Additional observations from a re-analysis of the deposited data

How the results depend on the processing

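Of 169 recomputed values, 137 kept their direction and side of the threshold (a count, within 1.5 times), 28 had the opposite sign and 4 counts moved by more than 1.5 times. The cause of the changes of sign was not tested. With 3 samples a group p cannot fall below 0.1, and with 5 samples the sign-flip p cannot fall below 0.0625, so these p-values say nothing about stability. The 55 multi-form proteins became 32 in the read 2 tables, 32 with at least 50 reads, 32 without IL-17pos 27-01 (32 to 54 over the samples left out) and 10 when less-read forms 1 base from another form in the sample were dropped. They stayed at 55 when such forms were dropped only below a form with 20 times the reads. Dropping all near-copies, leaving out both 27-01 samples and counting bases that match no germline segment were chosen after seeing the data.

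For IL-17pos minus IL-17neg, the share of multi-form proteins was -1.80 in the read 2 tables, -0.184 with at least 2 reads and -0.193 to 1.55 with a sample left out. The share of their reads was 0.0839 with near-copies dropped, 0.763 without both 27-01 samples and -2.25 to 1.60 with a sample left out. The share with several forms in the sample was -1.73 in the read 2 tables, -0.0745 with at least 50 reads and -0.585 to 1.58 with a sample left out. Their insertions were -1.96 to 0.703 with a sample left out.

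For members minus single-form proteins, insertions were 0.747 as bases without a germline match, and otherwise -6.46 (near-copies dropped) to -1.40, including -2.84 in the read 2 tables and -3.90 weighted by reads. The share without insertions was higher in members under every alternative run, by 1.23 to 38.8 points. These runs share most of their forms and are not separate evidence. The 38.8 is with near-copies dropped, which left A, C and the 8 proteins whose forms were never in one sample. Weighted by reads it was 27.9, where A1 and A2 had many reads, and the pooled shares were 6.67% and 6.24%. The *Trdd2* share was -3.05 in the read 2 tables, -3.33 with at least 2 reads, -9.64 with near-copies dropped and -2.50 to 4.81 with a sample left out. The share without D was -0.867 weighted by reads, 5.38 in the read 2 tables, 6.50 with at least 2 reads, 12.9 with near-copies dropped and -2.38 to 4.55 with a sample left out. The *Trdv5* share was -0.428 with at least 2 reads, 16.1 in the read 2 tables, 16.5 without both 27-01 samples, -8.16 with near-copies dropped and -0.496 to 9.69 with a sample left out. CDR3 length was -6.69 with near-copies dropped.

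Samples with the same number did not deviate together (correlations of -0.0260, -0.0832 and -0.182 over 1127 proteins), so the numbers were not used as pairs. Most of these proteins were found in 1 sample, so this does not show whether an animal or a day is shared, and both 27-01 samples held more clonotypes of at least 10 reads (411 and 398) than the others (53 to 158). With the replicate block the insertions of members stayed at -2.02 relative to single-form proteins (exact permutation p = 0.25, the smallest 3 pairs allow), and no call could pass the threshold. The small number of member forms in some samples (3 in IL-17neg 20-01) limits all of these differences.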
